A study of Mus musculus with 9 samples.

Results

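The 7 genes described here stand at the centre of the stem cell state, and their RNA was followed in mouse embryonic stem cells exposed briefly to inhibitors of the kinase GSK3. They were the transcription factor genes Pou5f1, Sox2, Nanog, Sall4 and Utf1, and the RNA-binding protein genes Lin28a and Trim71. They were chosen by symbol, and all 7 were found among the 52264 rows of the count table and among the 15366 rows that passed the filter on low counts. The cells carry the label β-catenin null in all groups and had been expanded on feeder-treated dishes with LIF (40 ng/ml), CHIR (3 µM) and PD03, a MEK inhibitor (1 µM). After a night in N2B27 medium they received no inhibitor (control), BRD0705, which is selective for GSK3α, or CHIR, which inhibits GSK3α and GSK3β. RNA was taken after 30 min. The labels do not give the doses of the 30 min exposure or say whether the line is 1 clone. Each group had 3 libraries, 9 in all, and nothing says that replicates came from separate cultures, so p-values measure the spread between these libraries only, which may be technical.

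OCT4, the POU-domain protein made from Pou5f1, binds DNA next to the HMG-box protein SOX2, and together with the homeodomain protein NANOG they sit on many of the same enhancers, their own included. SALL4 is a zinc finger protein of the same network, and UTF1 is a chromatin-bound protein of undifferentiated cells. LIN28A blocks the maturation of let-7 microRNAs, and TRIM71, also known as LIN41, represses mRNAs of differentiation and is itself a let-7 target. In wild-type stem cells CHIR stabilises β-catenin, which relieves repression by TCF7L1 of pluripotency genes. These cells pose the question of what GSK3 inhibition does to the core genes without that route. Every library carries the β-catenin null label and no wild-type cells were measured, so the part of that route was not tested. RNA levels were read only after the brief exposure, so slower changes in these levels were not tested either.

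Total counts per library were 17359422 to 20773337. Each of the 9 pairs of libraries within a group differed beyond counting noise (chi-square divided by its degrees of freedom, 3.39 to 8.01). Ctnnb1, which encodes β-catenin, had 5657 to 7457 counts in every library, a gene total from which the disrupted part of the gene cannot be seen. The 8 stem cell markers had a summed level of 3854 to 4199 CPM (counts scaled to a common library size, with TMM factors). Pou5f1, Sox2 and Nanog are among these markers, so the sum is not independent of the core genes. Markers of feeder fibroblasts were detected: 15 of them summed to 2730 to 3275 CPM in control, 3456 to 3536 CPM in BRD0705 libraries and 3059 to 3658 CPM in CHIR libraries. All 15 had a higher fitted level than control under each inhibitor, by a median log2 fold change of 0.21 for BRD0705 and 0.16 for CHIR. Their mean log2 CPM, called the feeder score, was 6.11 to 6.33 in control, 6.43 to 6.46 with BRD0705 and 6.20 to 6.49 with CHIR, so it did not overlap between control and BRD0705. Markers of other cell types had summed levels of at most 24.9 CPM for primitive endoderm and 15.7 CPM for trophoblast. The 4 tested markers of neural progenitors summed to 91.1 to 98.0 CPM in control, 90.4 to 98.5 CPM in BRD0705 libraries and 80.1 to 92.0 CPM in CHIR libraries. Sox17, Cdx2 and Elf5 stayed under 1 CPM in every library and the neural gene Neurog2 was at 0. In such bulk samples a smaller share of stem cells and less RNA of a gene per stem cell cannot be told apart. The part of the feeder markers in the differences below was not tested beyond a fit with the score as a covariate.

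The promoters of the genes are shown first, because the core factors are known to act on their own genes. RefSeq on GRCm38.p6 gave windows of 300 bases around a listed start for 6 of the 7 genes, 2 each for Pou5f1 and Nanog. The Lin28a window and the second Pou5f1 window lie inside the loci given further on, so their starts are not the outer ends of those genes. 4 short patterns were searched on both strands: ATGCAAA for POU factors, ACAATG for SOX factors, TCAAAG for TCF factors, and the joint POU and SOX pattern, which is TTTGCAT (the POU pattern on the other strand), any 1 base and ACAATG, and so overlaps both single patterns. The joint pattern was in 2 of 32851 windows of all genes (0.00609%), and both were the overlapping windows of Nanog. ATGCAAA was in 4.63% of all windows, ACAATG in 12.6% and TCAAAG in 16.0%. Below, capitals mark these patterns, which are matches of letters and not measured binding sites. The Nanog window is chr6:122707239-122707538 (plus strand) and holds the joint pattern starting 75 bases before its start. The Sox2 window is chr3:34649745-34650044 (plus strand) and holds the POU pattern starting 99 bases before its start. The Lin28a window is chr4:134018767-134019066 (minus strand) and holds a SOX and a TCF pattern, each on the reverse strand.
Nanog: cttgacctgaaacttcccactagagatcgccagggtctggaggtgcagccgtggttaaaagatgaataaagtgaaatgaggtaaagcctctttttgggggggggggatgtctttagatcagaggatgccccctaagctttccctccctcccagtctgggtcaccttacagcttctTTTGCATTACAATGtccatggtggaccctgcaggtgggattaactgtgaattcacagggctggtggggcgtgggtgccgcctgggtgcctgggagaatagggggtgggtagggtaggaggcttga
Sox2: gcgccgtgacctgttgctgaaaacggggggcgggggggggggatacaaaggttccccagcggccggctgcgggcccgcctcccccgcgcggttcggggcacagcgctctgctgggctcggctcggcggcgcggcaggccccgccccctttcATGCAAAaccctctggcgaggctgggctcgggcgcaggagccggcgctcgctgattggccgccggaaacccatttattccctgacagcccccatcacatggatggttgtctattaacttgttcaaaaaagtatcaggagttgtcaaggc
Lin28a: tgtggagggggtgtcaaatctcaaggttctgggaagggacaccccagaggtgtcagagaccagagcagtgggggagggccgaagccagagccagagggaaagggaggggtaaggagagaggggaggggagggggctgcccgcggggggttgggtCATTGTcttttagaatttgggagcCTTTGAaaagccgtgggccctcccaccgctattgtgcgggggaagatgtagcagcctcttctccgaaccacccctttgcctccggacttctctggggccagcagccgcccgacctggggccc
The second Pou5f1 window held 1 SOX pattern. The Utf1 and Trim71 windows, and the first of Pou5f1, held none of the 4.

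The 2 RNA-binding protein genes are shown by their let-7 sites, since both belong to the let-7 circuit. Of 11 mature let-7 family sequences of RefSeq, 10 share the seed GAGGUAG (bases 2 to 8, in capitals below). Its reverse complement CTACCTC was counted in the longest annotated 3′ untranslated region of each gene in GENCODE vM39. Trim71 had 4 matches in 5512 nt, Lin28a 2 in 2775 nt and Sall4 1 in 1697 nt, while Pou5f1, Sox2, Nanog and Utf1 had 0 in 555 to 1248 nt. Of 13648 tested genes with such a region, of any length, 14.4% held a match. The microRNAs themselves were not measured here.
mmu-let-7a-5p: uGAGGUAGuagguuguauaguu
mmu-let-7g-5p: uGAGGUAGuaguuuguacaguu
Trim71 site 1: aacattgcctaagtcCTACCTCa
Trim71 site 2: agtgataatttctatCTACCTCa
Trim71 site 3: tttagtatggattttCTACCTCa
Trim71 site 4: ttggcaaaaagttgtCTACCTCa
Lin28a site 1: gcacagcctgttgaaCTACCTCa
Lin28a site 2: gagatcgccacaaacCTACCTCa
Sall4 site: agggctttaatttatCTACCTCa

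All 7 genes were well expressed in every library, so the precision of the comparisons does not rest on a few reads. Utf1 had 974 ± 66.7 and Pou5f1 918 ± 35.3 CPM (SD, n = 9 each), ranks 92 and 109 by CPM of the 15366 tested genes. Nanog was at 545 ± 19.9 CPM, Sall4 at 335 ± 15.7 CPM, Sox2 at 221 ± 15.7 CPM, Lin28a at 188 ± 13.1 CPM and Trim71 at 107 ± 9.13 CPM (SD, n = 9 each). The smallest count of any of them in a library was 1707, for Trim71. Per kilobase of annotated exon (lengths from GENCODE vM39), the order was Utf1 at 761 ± 52.1, Pou5f1 at 297 ± 11.4, Nanog at 148 ± 5.42, Sox2 at 107 ± 7.61, Sall4 at 59.4 ± 2.79, Lin28a at 46.7 ± 3.27 and Trim71 at 11.5 ± 0.978 CPM per kb (SD, n = 9 each). No neighbours in that order overlapped over the 9 libraries, and dividing by the longest transcript instead kept the order. The coefficient of variation over the 9 libraries was 3.66% for Nanog, 3.85% for Pou5f1 and 4.70% for Sall4, at percentiles 3.17, 4.03 and 8.81 of the tested genes. It was 6.85 to 8.50% for the others, at percentiles 26.9 to 40.1, against a median of 9.99% over all tested genes. The 7 genes lie at percentiles 86.9 to 99.4 by mean CPM, so most genes of this background have fewer reads. Genes of like level were not compared.

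**Figure D1:**
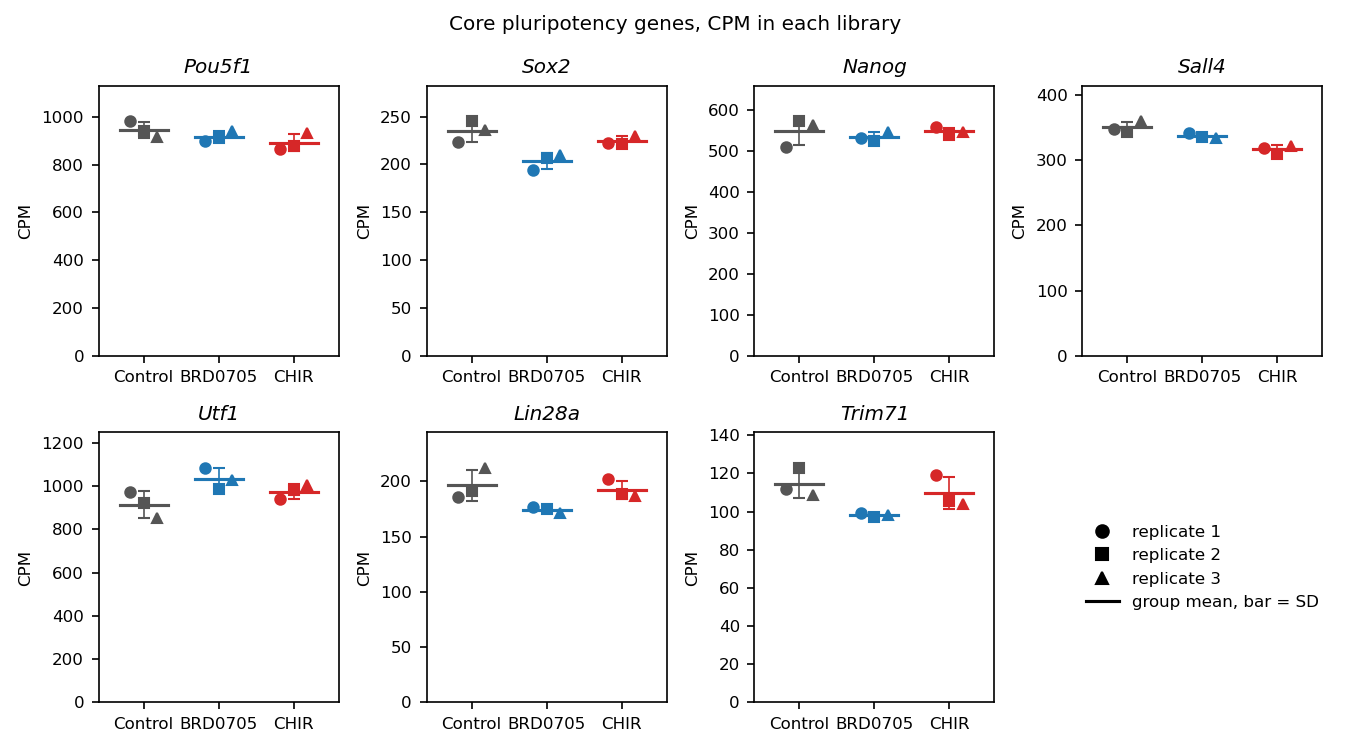
CPM of the 7 genes (y axis, from 0) in each of the 9 libraries, by group (x axis); symbols are replicates, horizontal lines group means and bars SD (n = 3). Sox2, Lin28a and Trim71 lie lower in each BRD0705 library than in any control library, while the Nanog ranges of the 3 groups overlap.

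Each gene lies at 1 locus of GRCm38.p6, the build also known as mm10. Pou5f1 lies on chromosome 17 from 35506032 to 35510777, Sox2 on chromosome 3 from 34649995 to 34652461, Nanog on chromosome 6 from 122707489 to 122714633 and Utf1 on chromosome 7 from 139943856 to 139945112, all on the plus strand. Sall4 lies on chromosome 2 from 168748332 to 168767201, Lin28a on chromosome 4 from 134003330 to 134019196 and Trim71 on chromosome 9 from 114511268 to 114564369, all on the minus strand. Sox2 has a single exon and lies within the noncoding gene Sox2ot on the same strand without sharing exon sequence, and the Sox2ot row had 22 to 36 counts per library. The 7 rows named as Pou5f1 relatives and the 2 named as Nanog pseudogenes were at 0 in every library, so no reads were assigned to those copies. Antisense noncoding rows that overlap exons of Pou5f1, Sall4, Lin28a or Trim71 had at most 11 counts in a library. The annotated antisense genes Gm32362 at Pou5f1, Gm64654 at Sox2 and Gm68578 at Nanog were not analysed here.

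BRD0705 was compared with control to ask whether inhibiting GSK3α changes the core genes within 30 min. None of the 7 had an adjusted p under 0.05 by the edgeR quasi-likelihood F test (Benjamini-Hochberg over all genes), where 1.22% of all tested genes did. An unadjusted p under 0.05 was found for 4 of the 7 and for 15.9% of all tested genes. DESeq2 called 3 of the 7 (Sox2, Utf1 and Trim71) and 477 of the 15366 tested genes, where limma voom called 0 and 174. The CPM ranges of the 2 groups did not overlap for 5 genes, 1 higher and 4 lower with BRD0705, a pattern seen in 20.2% of the tested genes (9.83% higher and 10.4% lower). The median log2 fold change of the 7 was -0.06, against -0.0038 over all tested genes.

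Sox2, the HMG-box partner of OCT4, had the lowest adjusted p. It stood at 223, 245 and 236 CPM in control replicates 1 to 3 and at 194, 207 and 210 CPM in the BRD0705 replicates. Every BRD0705 library was below every control library. The level was 13.4% lower, a log2 fold change of -0.21 (SE 0.05, 95% interval -0.32 to -0.10, edgeR adjusted p 0.0601). The call changed with the tool: the adjusted p was 0.0115 with DESeq2, 0.0303 in edgeR without the low-count filter, 0.0390 without control replicate 1, and 0.628 with the feeder score as a covariate, where the log2 fold change was -0.13. Of its 22 alternatives 3 passed, with 1 of them among the 9 fits that left out a library. The sign was negative in all 22, which refit the same counts.

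Trim71 and Lin28a, the let-7 circuit genes, had the same pattern. Trim71 was at 112, 123 and 109 CPM in the control replicates and at 99.5, 97.1 and 98.3 CPM in the BRD0705 replicates, with no overlap. Its log2 fold change was -0.22 (SE 0.06, 95% interval -0.35 to -0.09, edgeR adjusted p 0.0893). Only 2 of its 22 alternatives passed, with an adjusted p of 0.0363 by DESeq2 and 0.0299 in edgeR without the low-count filter. The BRD0705 libraries were close together, with an SD of 1.19 CPM against 7.51 CPM in control. Lin28a was at 185, 191 and 212 CPM in control and 176, 175 and 171 CPM with BRD0705, again with no overlap. Its log2 fold change was -0.17 (SE 0.06, 95% interval -0.29 to -0.05, edgeR adjusted p 0.144), and none of its 22 alternatives passed. With the feeder score as a covariate the log2 fold changes were -0.23 for Trim71 and -0.19 for Lin28a, with edgeR adjusted p values of 0.458 and 0.522. The score did not overlap between control and BRD0705, so this fit, also given for Sox2, cannot separate the score from the treatment.

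Utf1 differed in the other direction. It was at 972, 919 and 851 CPM in control and at 1084, 987 and 1027 CPM with BRD0705. The lowest BRD0705 library was just above the highest control library. The log2 fold change was 0.18 (SE 0.06, 95% interval 0.06 to 0.30, edgeR adjusted p 0.132). DESeq2 gave an adjusted p of 0.0373, the only 1 of 22 alternatives that passed. Utf1 has the most GC-rich transcript of the 7, at 63.6% GC. Transcript GC was correlated with the centred log2 CPM of each library, over genes that are not independent replicates. Spearman's rho was 0.0800 to 0.279 in BRD0705, -0.287 to 0.186 in control and -0.121 to -0.0642 in CHIR libraries. BRD0705 and control overlapped, while BRD0705 and CHIR did not. The part of GC content in the Utf1 difference was not tested. With the GC and length trends of the libraries removed, the log2 fold change of Utf1 was 0.11 (edgeR adjusted p 0.364). Those of Sox2, Trim71 and Lin28a were -0.18, -0.27 and -0.17, and none of the 7 passed. Under CHIR the log2 fold change of Utf1 was 0.14 with these trends removed and 0.09 without that step.

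Pou5f1, Nanog and Sall4 differed least under BRD0705. Pou5f1 was at 981, 940 and 915 CPM in control and 899, 911 and 942 CPM with BRD0705 (log2 fold change -0.04, 95% interval -0.15 to 0.06). Nanog was at 510, 574 and 564 CPM in control and 533, 525 and 548 CPM with BRD0705 (log2 fold change -0.04, 95% interval -0.15 to 0.07). The BRD0705 values of Pou5f1 overlapped those of control, and those of Nanog lay inside the control range. Sall4 was at 348, 343 and 360 CPM in control and 341, 335 and 334 CPM with BRD0705, apart by little (log2 fold change -0.06, 95% interval -0.16 to 0.04). These intervals hold 0, and the lowest bound among them is -0.16 on the log2 scale.

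**Figure D2:**
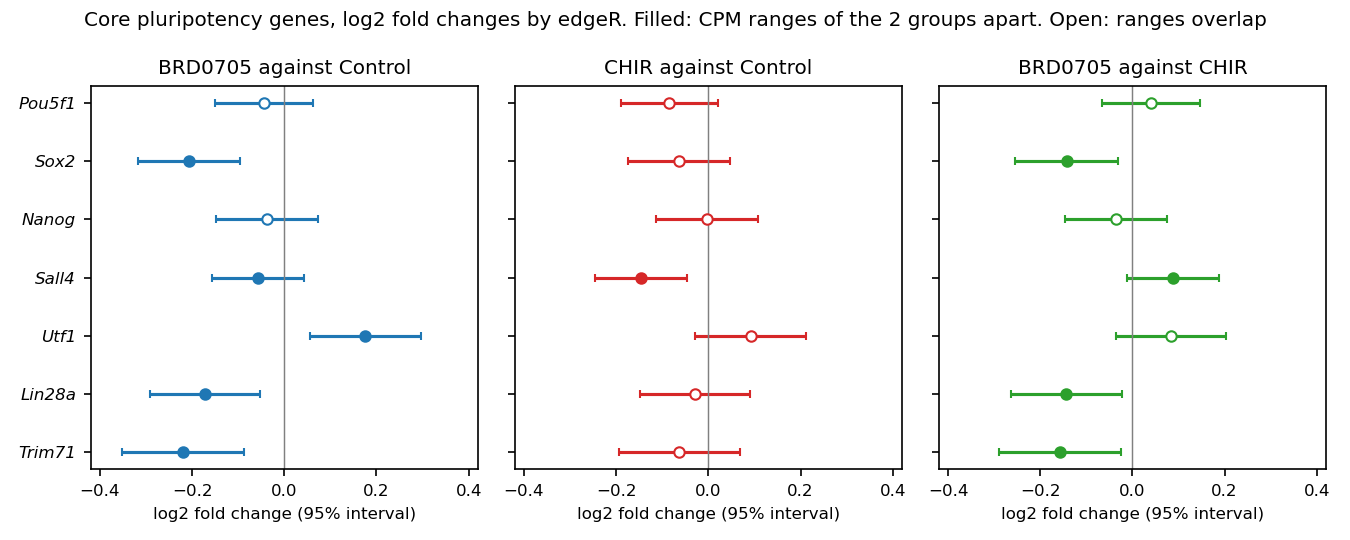
Log2 fold changes (x axis) of the 7 genes (y axis) in the 3 comparisons by edgeR; bars are 95% intervals, filled points mark groups whose CPM ranges are apart. No gene passed an adjusted p of 0.05 in any comparison; 5 genes have filled points for BRD0705 against control and 1 for CHIR against control.

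CHIR was compared with control to ask what inhibiting both GSK3 enzymes does to the same genes. None of the 7 passed in edgeR's quasi-likelihood test, where 6.3% of all tested genes did. Of the 7, 1 had an unadjusted p under 0.05, against 20.5% of all tested genes. Neither DESeq2 nor limma voom called any of the 7, where they called 923 and 907 of all tested genes. The CPM ranges did not overlap for 1 gene, where 25.1% of the tested genes had ranges apart. The median log2 fold change of the 7 was -0.06, against -0.0091 over all tested genes.

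That gene was Sall4, which encodes the zinc finger partner of OCT4. It was at 319, 309 and 322 CPM with CHIR, below the 343 to 360 CPM of the control libraries. The log2 fold change was -0.15 (SE 0.05, 95% interval -0.25 to -0.05, edgeR adjusted p 0.0781). Only 1 of 22 alternatives passed, with an edgeR adjusted p of 0.0318 when libraries were scaled by their total counts only. Pou5f1 was at 866, 877 and 931 CPM with CHIR, which overlaps control (log2 fold change -0.08, 95% interval -0.19 to 0.02). Utf1 was at 938, 980 and 1005 CPM, which also overlaps control (log2 fold change 0.09, 95% interval -0.03 to 0.21).

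Nanog, the gene of the set long tied to TCF7L1 repression, was at 559, 541 and 546 CPM with CHIR. All of these lay inside the control range, and the log2 fold change was -0.0019 (95% interval -0.11 to 0.11, edgeR adjusted p 0.991). Whether Nanog would differ in wild-type cells or after a longer exposure was not tested. Sox2 was at 223, 222 and 230 CPM with CHIR (log2 fold change -0.06, 95% interval -0.17 to 0.05). Lin28a was at 202, 188 and 187 CPM (log2 fold change -0.03, 95% interval -0.15 to 0.09) and Trim71 at 119, 105 and 104 CPM (log2 fold change -0.06, 95% interval -0.19 to 0.07). The CHIR and control ranges of Sox2, Lin28a and Trim71 overlapped.

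Both comparisons with control share the control libraries, so the inhibitors were also set against each other directly. None of the 7 passed in edgeR's quasi-likelihood test, where 7.77% of all tested genes did. Of the 7, 3 (Sox2, Lin28a and Trim71) had an unadjusted p under 0.05, against 22.5% of all tested genes. DESeq2 and limma voom called 0 of the 7, and 1117 and 1126 of all tested genes. The CPM ranges did not overlap for 4 genes, where 26.7% of the tested genes had ranges apart (13.7% higher and 12.9% lower with BRD0705). Sox2, Lin28a and Trim71 were lower with BRD0705 than with CHIR in every library and Sall4 was higher. The log2 fold changes were -0.14 for Sox2 (95% interval -0.25 to -0.03, edgeR adjusted p 0.112), -0.14 for Lin28a (-0.26 to -0.02, edgeR adjusted p 0.142), -0.16 for Trim71 (-0.29 to -0.02, edgeR adjusted p 0.144) and 0.09 for Sall4 (-0.01 to 0.19, edgeR adjusted p 0.283). Those of Pou5f1, Nanog and Utf1 were 0.04 (95% interval -0.07 to 0.15), -0.04 (-0.15 to 0.08) and 0.08 (-0.04 to 0.20).

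The correction for GC content and length changed these calls. After it, Sox2, Lin28a and Trim71 passed, with log2 fold changes of -0.19, -0.20 and -0.25 between BRD0705 and CHIR and edgeR adjusted p values of 0.0313, 0.0340 and 0.0220. Their adjusted p values were 0.0260, 0.0456 and 0.0313 when the replicate number was also a block. The correction also removed a constant per library. With it, the median log2 fold change of all tested genes between BRD0705 and CHIR moved from 0.0038 to -0.041. The corrected fit called 1520 of all tested genes, against 1194 in the reported fit. The part of this shift in the calls of Sox2, Lin28a and Trim71 was not tested. Spearman's rho with GC content did not overlap between BRD0705 (0.0800 to 0.279) and CHIR libraries (-0.121 to -0.0642). The corrected fit therefore cannot separate the GC trend from the treatment in this comparison. The feeder score of the BRD0705 libraries (6.43 to 6.46) lay inside the CHIR range (6.20 to 6.49). With the score as a covariate, the adjusted p values of Sox2, Lin28a and Trim71 were 0.185, 0.171 and 0.172. Over all 21 tests of the 7 genes in the reported edgeR fit, the 95% intervals reached at most 0.35 on the log2 scale, a 1.28-fold difference. This bound does not cover the corrected fits.

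**Figure D3:**
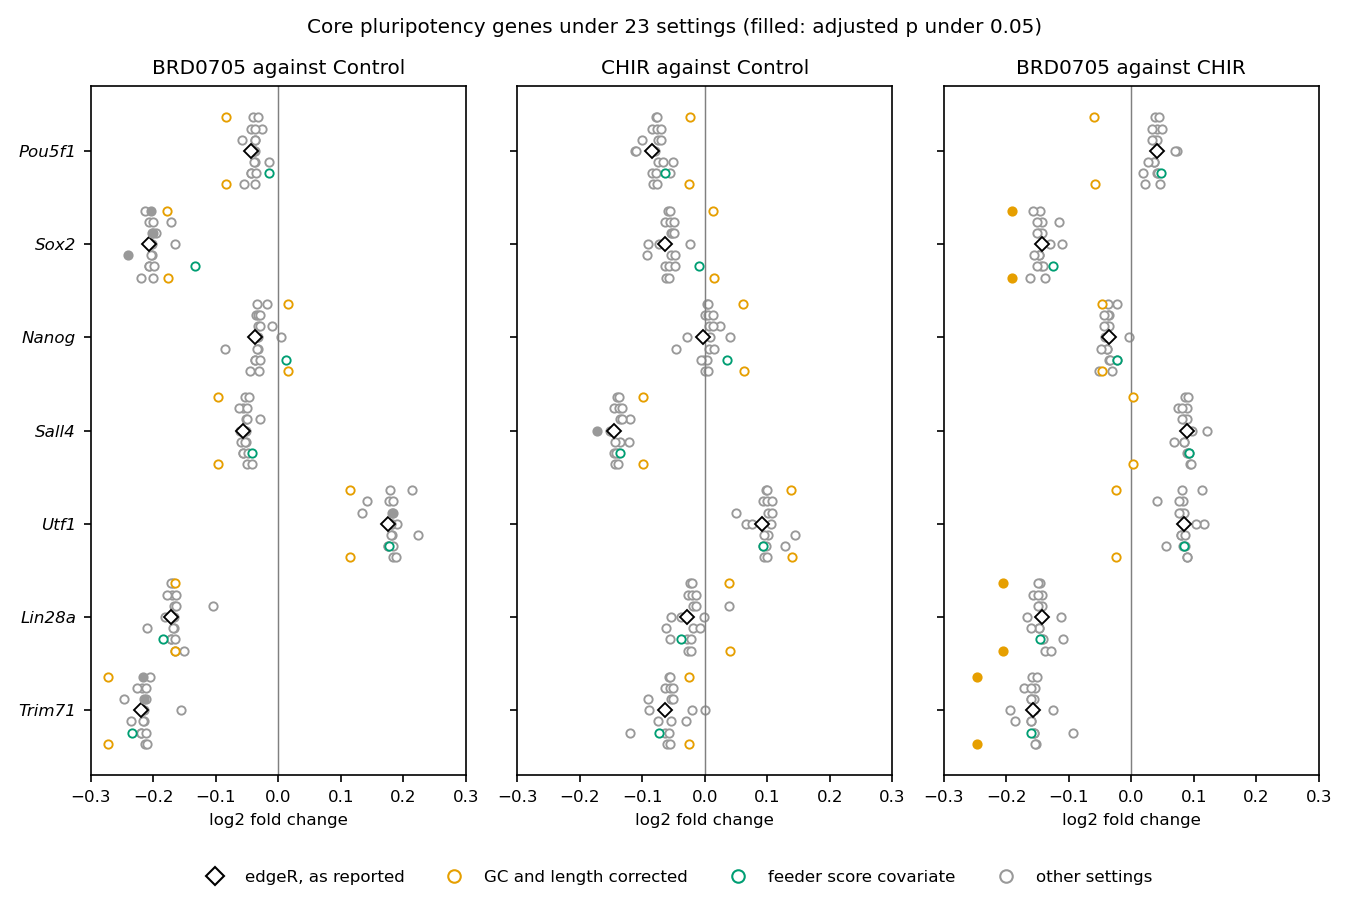
Log2 fold changes (x axis) of the 7 genes (y axis, with settings spread vertically for legibility) under the reported edgeR setting (diamonds) and 22 alternatives (circles), in the 3 comparisons; filled symbols have an adjusted p under 0.05. Filled grey circles are Sox2, Utf1 and Trim71 for BRD0705 and Sall4 for CHIR, and filled orange circles (corrected for GC content and length) are Sox2, Lin28a and Trim71 between the inhibitors, at -0.19 to -0.25.

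The genes around the core factors were taken from 7 lists, 112 tested genes in all. Of all tested genes, 1.22% passed in either direction under BRD0705, 6.3% under CHIR and 7.77% between the inhibitors. These shares are the background for each list below, and no list was tested as a set. Under BRD0705, 2 of the 112 passed as higher and 1 as lower by edgeR, against 0.69% and 0.534% of all tested genes. Under CHIR 3 passed as higher and 10 as lower, against 2.52% and 3.78% of all tested genes. Between the inhibitors 9 were higher and 5 lower with BRD0705, against 4.8% and 2.97%. These directions turned with the GC content and length correction. The trends it removed include a constant per library, so the correction also moved the median log2 fold change of all tested genes. That median went from -0.0091 to 0.034 under CHIR and from 0.0038 to -0.041 between the inhibitors. The part of this shift in the turn was not tested. Between the inhibitors, whose rho with GC content did not overlap, the correction cannot separate the GC trend from the treatment. Under CHIR the correction gave 12 listed genes higher and 8 lower, and 993 higher and 533 lower of all tested genes in place of 387 and 581. Between the inhibitors it gave 5 listed genes higher and 16 lower, and 529 higher and 991 lower of all in place of 738 and 456. Scaling by library size only moved the split the other way, to 1 higher and 11 lower under CHIR and 14 higher and 2 lower between the inhibitors, while DESeq2 gave 8 and 9 under CHIR.

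The 30 tested partners of the core factors had a median log2 fold change of 0.03 under each inhibitor, with 19 higher and 11 lower in fitted value in both comparisons. Under CHIR 1 of the 30 passed: Esrrb, an orphan nuclear receptor gene that maintains naive cells, rose by 0.22 on the log2 scale, from 886 ± 16.3 CPM in control to 1034 ± 13.3 CPM (SD, n = 3 each; edgeR adjusted p 0.00734). It stood at 929 ± 10.1 CPM with BRD0705, below CHIR (log2 fold change -0.15, edgeR adjusted p 0.0474), a call made in 1 of 9 leave-one-out fits. Wdr5, a subunit of histone H3 lysine methyltransferase complexes, was lower with BRD0705 than with CHIR by the same test (215 ± 8.64 against 243 ± 8.64 CPM, adjusted p 0.0389). Sall1, a relative of Sall4, was higher (330 ± 22.2 against 277 ± 24.6 CPM, edgeR adjusted p 0.0217; SD, n = 3 each). The Wdr5 call was made in 2 and the Sall1 call in 5 of the 9 fits, and that of Sall1 was lost with the GC content and length correction (edgeR adjusted p 0.0838).

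Of 20 tested targets of the core factors, 1 passed under BRD0705 and 2 under CHIR, with medians of -0.03 and 0.05 on the log2 scale. Lefty1, which encodes an inhibitor of Nodal signalling, rose with BRD0705 by 0.67 on the log2 scale, from 26.9 ± 1.98 CPM to 42.9 ± 5.03 CPM (SD, n = 3 each; edgeR adjusted p 0.00370) and was at 28.5 ± 4.15 CPM with CHIR. The call held in each of the 9 leave-one-out fits, but not with the feeder score as a covariate (edgeR adjusted p 0.275), and its reads could be shared with the near-identical Lefty2. Nodal fell under CHIR, from 61.8 ± 3.43 to 52.5 ± 2.30 CPM (SD, n = 3 each; edgeR adjusted p 0.0344), and passed in 2 of those 9 fits and not with the GC content and length correction (edgeR adjusted p 0.0749). Klf4, a naive pluripotency factor gene, rose under CHIR from 165 ± 4.38 to 188 ± 9.33 CPM (edgeR adjusted p 0.0369) and stood at 148 ± 5.02 CPM with BRD0705, lower than with CHIR by 0.35 on the log2 scale (edgeR adjusted p 0.000660; SD, n = 3 each). Tdgf1, a co-receptor gene of Nodal, was also lower with BRD0705 than with CHIR (403 ± 32.2 against 465 ± 8.58 CPM, edgeR adjusted p 0.0321; SD, n = 3 each). The Klf4 call under CHIR and the Tdgf1 call were each made in 4 of the 9 fits. Of the 15 naive factors, Esrrb and Klf4 were the only ones called in any comparison.

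Of 20 tested genes of the LIN28 axis, 1 passed as lower under BRD0705, and 1 as higher and 2 as lower under CHIR. The medians were 0.0034 and 0.06 on the log2 scale. Mycn, a MYC family gene and let-7 target, fell under both, from 157 ± 4.23 to 133 ± 0.721 CPM (BRD0705) and 129 ± 1.47 CPM (CHIR; SD, n = 3 each; edgeR adjusted p 0.0263 and 0.00205). Myc, the other MYC gene listed, fell under CHIR (56.6 ± 4.77 to 47.7 ± 0.875 CPM, edgeR adjusted p 0.0476) and was higher with BRD0705, at 66.0 ± 5.67 CPM, than with CHIR (log2 fold change 0.47, edgeR adjusted p 0.000571; SD, n = 3 each). Dgcr8, the RNA-binding subunit of the Microprocessor, rose under CHIR from 72.8 ± 0.495 to 85.9 ± 4.56 CPM (edgeR adjusted p 0.0228), but its exons overlap the antisense gene Trmt2a. The calls against control were made in 4 of the 9 leave-one-out fits for Mycn under BRD0705, 2 for Myc and 5 for Dgcr8, and that of Myc was lost with the GC content and length correction (edgeR adjusted p 0.0986). Hmga2 and Arid3a, both let-7 targets, were higher with BRD0705 than with CHIR (39.6 ± 1.75 against 33.7 ± 1.45 CPM and 18.9 ± 1.35 against 14.2 ± 1.17 CPM, edgeR adjusted p 0.0333 and 0.00657; SD, n = 3 each). The Arid3a call was made in each of the 9 fits, that of Hmga2 in 3, and that of Hmga2 was lost with the correction (edgeR adjusted p 0.0667). Neither passed against control.

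Of the 16 tested POU, SOX and SALL relatives, 5 passed under CHIR, all lower, where 3.78% of all tested genes passed as lower. The median log2 fold change of the 16 was -0.18, against -0.0091 over all tested genes. Sox4 fell from 49.4 ± 1.72 to 35.9 ± 0.966 CPM (log2 fold change -0.46, edgeR adjusted p 0.000115) and Sox12 from 72.4 ± 1.58 to 56.8 ± 2.91 CPM (-0.35, edgeR adjusted p 0.00516; SD, n = 3 each). Both encode SOXC proteins of progenitor cells, and both were called in each of the 9 leave-one-out fits. Sox1, a neural SOX gene at 4.26 ± 0.556 CPM in control, fell to 2.50 ± 0.379 CPM (SD, n = 3 each; edgeR adjusted p 0.0203), in 6 of those fits. The other two, Pou6f1 and Pou2f2, fell to 9.91 ± 0.571 and 4.10 ± 0.343 CPM (SD, n = 3 each), were each called in 4 of those fits, and were named after their values were seen. Under BRD0705 1 of the 16 passed: Sox13 rose from 67.0 ± 1.80 to 78.7 ± 2.17 CPM (SD, n = 3 each; edgeR adjusted p 0.0456), a call that 4 of the 9 leave-one-out fits also made and that was lost with the GC content and length correction (edgeR adjusted p 0.164).

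Of 14 tested formative and primed genes, Dnmt3a, a de novo DNA methyltransferase gene, and Foxd3, a forkhead factor gene, fell under CHIR. Dnmt3a went from 81.7 ± 4.01 to 70.1 ± 2.49 CPM and Foxd3 from 57.7 ± 0.0894 to 47.5 ± 4.76 CPM (SD, n = 3 each; edgeR adjusted p 0.0286 and 0.0371), in 4 and 3 of the 9 fits. The median of the 14 was 0.05 under BRD0705 and -0.04 under CHIR on the log2 scale. Of 11 tested lineage genes, Sox1 passed under CHIR, and Sox1 and the endoderm gene Sox7 were higher with BRD0705 than with CHIR (edgeR adjusted p 0.0383 and 0.0369), each in 4 of the 9 fits and neither with the correction (0.0759 and 0.0501). Sox7 was low throughout, with a mean CPM of 4.41 ± 0.476 under BRD0705 against 2.75 ± 0.790 under CHIR (SD, n = 3 each). With the feeder score as a covariate, 0 of the 3 listed genes called under BRD0705 and 3 of the 112 under CHIR (Sox4, Mycn and Nodal) passed in edgeR. Between the inhibitors that covariate ended the calls of Esrrb, Wdr5, Tdgf1 and Sox1 (edgeR adjusted p 0.0825, 0.0729, 0.0556 and 0.0517).

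**Figure D4:**
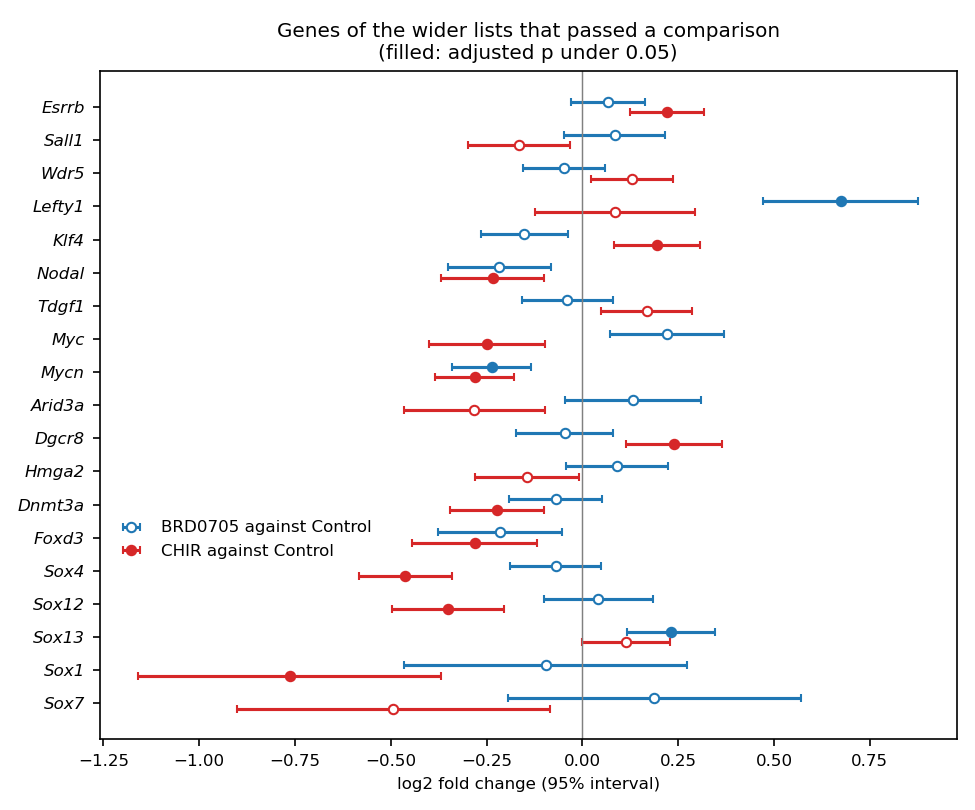
Log2 fold changes against control (x axis) of the genes from the 7 lists that passed in at least 1 of the 3 comparisons and were named by rule (y axis), for BRD0705 (blue) and CHIR (red) by edgeR; bars are 95% intervals and filled points have an adjusted p under 0.05. Lefty1 is the gene farthest to the right, at 0.67 with BRD0705, and Sox4, Sox12 and Sox1 are to the left with filled points for CHIR and open ones for BRD0705.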

How the data were processed

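The 9 RNA sequencing libraries fell into 3 groups of 3, with groups and replicate numbers from the library descriptions in the labels. Whole-number read counts, 1 row per gene symbol, are the values the authors deposited. RSEM, DESeq2 and mm10 are named in the submitters' processing notes without a role, so the counts may be rounded estimates; aligner, annotation and strand setting are not given in the sources used here. The authors also deposited normalized values, a signal equal to each count divided by 1 size factor per library, constant within a library to 9.98e-10 of its value.

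The test was edgeR 4.0.16 under R 4.3.3 (TMM scaling, filterByExpr with a minimum count of 10, quasi-likelihood F test, 2-sided, all 9 libraries in 1 fit of 3 group means, 6 residual degrees of freedom), with Benjamini-Hochberg adjustment over 15366 genes and a threshold of 0.05. Each standard error was the fold change divided by the root of F, and 95% intervals from the moderated degrees of freedom. CPM were scaled with TMM factors, and a prior count of 2 was added for log2 CPM. The procedure was tested on simulated data, with counts drawn independently for each gene. The simulated libraries held no GC trend and no feeder difference, so that test does not cover those features. Depth was 17359422 to 20773337 counts per library, which gave at least 1707 counts per library for each of the 7 genes.

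The genes and lists were chosen with earlier results of these data known. Named from each list were at most 5 genes by smallest p among those past the threshold in any comparison; for each of the 7 genes, the 2 genes with the smallest root mean square difference of centred log2 CPM, among those whose log2 CPM averaged 3 or more, were also named. Alternatives were the replicate number as a block, median-of-ratios scaling, library size only, DESeq2 1.42.0, limma 3.58.1 voom, a fit without the low-count filter, a filter on mean CPM of 1 or more, fits of the compared groups alone, each library left out in turn, limma on log2 of the deposited values with a pseudocount of 1 or 0.1, removal of library trends along GC content and length (splines, 5 degrees of freedom each, 98.5% of tested genes with values), that correction with the block, and the feeder score as a covariate. The removed trends included a constant per library, so the GC content and length correction also rescaled whole libraries. Lengths and GC content came from GENCODE vM39, promoter windows and loci from RefSeq on GRCm38.p6. No set test was run.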

Additional observations from a re-analysis of the deposited data

How the results depend on the processing

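Counts of genes with an adjusted p under 0.05 moved by more than 1.5 times in several settings. For BRD0705 against control, 188 of all tested genes, 0 of the 7 core genes and 3 listed genes passed in edgeR. DESeq2 gave 477, 3 and 8, and edgeR without the low-count filter 609, 2 and 8. All genes numbered 116 with the GC content and length correction and 121 with that correction and the replicate block. The feeder covariate left 2 genes and 0 listed genes. For CHIR against control (968, 0 and 13), the correction gave 1526 genes and 20 listed, the correction with the block 1483 and 21, the feeder covariate 303 and 3, and scaling by library size only 1 core gene. For BRD0705 against CHIR (1194, 0 and 14), the correction passed 3 core genes with or without the block, and fitting only those groups gave 9 listed genes.

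Leaving out 1 library gave 21 (without BRD0705 replicate 1) to 305 genes (without BRD0705 replicate 3), 0 to 1 core genes and 1 to 7 listed genes for BRD0705, 514 (without CHIR replicate 2) to 1070, 0 to 0 and 4 to 17 for CHIR, and 616 to 1313, 0 to 0 and 7 to 15 between the inhibitors.

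Some log2 fold changes near 0 reversed sign. Against control with BRD0705, Nanog was 0.016 with the GC content and length correction, with or without the block, 0.013 with the feeder covariate, and -0.086 to 0.0048 leaving out 1 library. With CHIR, Nanog was 0.0076 with median-of-ratios factors and with DESeq2, 0.0035 without the low-count filter, 0.00022 with a mean CPM of at least 1, 0.0042 with only the groups compared, 0.014 on the deposited values at both pseudocounts, 0.062 with the correction, 0.063 with the block added, 0.036 with the feeder covariate, and -0.046 to 0.040 leaving out 1 library. With the correction and then with the block added, Sox2 was 0.013 and 0.015 and Lin28a 0.039 and 0.040 under CHIR. The median of all tested genes was 0.034 in both of those fits, against -0.0091 in the reported fit. Leaving out 1 library gave Lin28a -0.062 to 0.038 and Trim71 -0.12 to 0.0010 under CHIR. Between the inhibitors, Pou5f1 was -0.059 in both corrected fits, and Utf1 was -0.024 with the correction and -0.025 with the block added. There the median of all tested genes was -0.041 and -0.040, against 0.0038 in the reported fit.

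Libraries of the same replicate number were on average no more alike than others. The correlation of deviations from group means averaged -0.0012 over 9 same-numbered pairs (-0.090 to 0.080) and 0.00062 over 18 others. Whether same-numbered libraries were handled together is not given by the labels and cannot be read from these correlations. The replicate block gave 222, 973 and 1177 genes and 0 of the 7 in each comparison. The cause of these shifts was not tested.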

Other observations

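Some related genes were measured beside the core set. Lin28b, the paralog of Lin28a, had 261 to 362 counts per library. Its CPM ranged from 13.5 to 17.5 among control, from 12.9 to 14.8 among BRD0705 and from 16.0 to 16.6 among CHIR libraries. The control range overlapped those of both inhibitors. Sox2ot, the noncoding gene around Sox2, was at 1.52 ± 0.246 CPM (SD, n = 9). Sox21, a repressor of the SOX family, had 9 to 30 counts per library.

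Ratios of counts within a library do not depend on scaling between libraries. The ratio of Sox2 to Pou5f1 counts was 0.228, 0.261 and 0.258 in control replicates 1 to 3, 0.216, 0.227 and 0.222 with BRD0705 and 0.257, 0.253 and 0.247 with CHIR. Every BRD0705 value was below every control value, by little for the highest of them. The ratio of Utf1 to Pou5f1 counts was 0.991, 0.978 and 0.930 in control, 1.21, 1.08 and 1.09 with BRD0705 and 1.08, 1.12 and 1.08 with CHIR. Every inhibitor library was above every control library, although the CPM of Utf1 itself overlapped between CHIR and control. How often ratios of other gene pairs lie apart was not computed. Among single tested genes, CPM ranges were apart from control in 20.2% for BRD0705 and 25.1% for CHIR. Such ratios also keep trends along GC content, which was 63.6% for Utf1 and 55.3% for Pou5f1. The ratio of Nanog to Pou5f1 counts was 0.520 to 0.617 in control, 0.576 to 0.593 with BRD0705 and 0.587 to 0.645 with CHIR, and these ranges overlapped.

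The genes most like each core gene over the 9 libraries were found by the root mean square difference of mean-centred log2 CPM, among 9557 genes. For Pou5f1 they were Zbtb14 and Chmp4c (0.024 and 0.030, where Pou5f1 itself varied by 0.052 around its mean), for Sox2 Ubl4a and Nap1l1 (0.029 and 0.032, against 0.097), and for Nanog Ankrd13c and Pcyox1 (0.026 and 0.027, against 0.050). For Sall4 they were Col18a1 and Samd1 (0.022 and 0.023, against 0.064), for Utf1 Rnps1 and Bag6 (0.028 and 0.031, against 0.094), for Lin28a Pigk and Gm49336 (0.029 and 0.034, against 0.094) and for Trim71 Cdc37l1 and Sucla2 (0.043 and 0.045, against 0.11). Among the 7 genes themselves the closest pairs were Pou5f1 with Sall4 (0.054) and Sox2 with Lin28a (0.073) and with Trim71 (0.076), and the least alike was Utf1 with Trim71 (0.19).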
